A study of Mus musculus with 32 samples.

Results

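The 40 genes described here encode the enzymes, transporters and regulators with which the liver makes, stores, releases and burns glucose. They were taken by gene symbol from a table of 41585 genes, and all 40 symbols were found in the deposited counts of both sexes. By role they comprise 5 genes of gluconeogenesis and glucose-6-phosphate export, 18 of glycolysis and sugar entry, 2 glucose transporters, 8 of glycogen metabolism, 4 of the pentose phosphate pathway and 3 of insulin signalling. Livers were from C57BL/6 mice (substrain C57Bl/6J in the study's methods), either wildtype (WT) and purchased from a supplier, or Cyp2b9/10/13-null (Cyp2b-null), a constitutive CRISPR/Cas9 deletion of 3 adjacent cytochrome P450 genes that was bred by the laboratory, so genotype and source of the mice cannot be told apart. Females and males of each genotype were given, from 10 weeks of age and for 8 weeks, either a normal chow diet (ND) or CDAHFD, a high fat diet that lacks choline and supplies its protein as defined L-amino acids, with 62% fat and 0.1% methionine and less carbohydrate than the chow. Each of the 8 groups had 4 libraries of whole-liver RNA, 32 in all. Whether the mice were fasted at necropsy is not given in the sources used here.

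The liver keeps blood glucose steady by running opposed pathways. After a meal, hepatocytes take up glucose through a high-capacity transporter, trap it as glucose-6-phosphate, and send it to glycogen, to glycolysis or to the pentose phosphate pathway, whose NADPH serves fat synthesis and antioxidant defence. During fasting, glycogen phosphorylase and gluconeogenesis refill the glucose-6-phosphate pool, and glucose-6-phosphatase releases free glucose to the blood. Insulin restrains the second program and favours the first, while a carbohydrate-responsive transcription factor raises glycolytic and lipogenic genes when sugar is plentiful. Several steps have isoforms: hepatocytes use liver forms of pyruvate kinase, glycogen phosphorylase and glucose transporter, while macrophages, fibroblasts and dividing cells use other forms.

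Stretches of 250 bases just before the RefSeq start sites of 4 of the genes are shown because 3 of them are textbook promoters of glucose control and the other belongs to the pyruvate kinase isoform that moved the opposite way. All are on the plus strand of GRCm38.p6, the RefSeq build from which gene positions are also taken. Capitals mark matches, on either strand, to a carbohydrate response element (CACGNG and CNCGTG set 5 bases apart), a cyclic AMP response element (TNACGTNA), the core of an insulin response element (CAAAACA), an E-box (CACGTG) or a GC box (GGGGCGGGG).
Pklr, chr3:89136373-89136622: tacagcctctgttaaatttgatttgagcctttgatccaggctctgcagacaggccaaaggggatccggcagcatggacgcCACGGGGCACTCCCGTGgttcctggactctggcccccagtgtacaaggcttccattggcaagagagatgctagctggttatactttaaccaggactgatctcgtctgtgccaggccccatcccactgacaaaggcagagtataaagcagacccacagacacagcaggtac
G6pc, chr11:101367466-101367715: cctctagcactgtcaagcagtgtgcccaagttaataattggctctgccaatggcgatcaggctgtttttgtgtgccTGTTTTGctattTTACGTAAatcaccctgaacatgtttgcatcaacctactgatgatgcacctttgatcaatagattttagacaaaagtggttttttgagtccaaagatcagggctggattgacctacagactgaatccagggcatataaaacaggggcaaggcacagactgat
Pck1, chr2:173152823-173153072: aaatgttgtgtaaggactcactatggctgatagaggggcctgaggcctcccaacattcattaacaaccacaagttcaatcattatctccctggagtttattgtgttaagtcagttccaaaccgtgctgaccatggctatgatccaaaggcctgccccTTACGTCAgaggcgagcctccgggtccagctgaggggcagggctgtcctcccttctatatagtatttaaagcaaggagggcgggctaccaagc
Pkm, chr9:59656326-59656575: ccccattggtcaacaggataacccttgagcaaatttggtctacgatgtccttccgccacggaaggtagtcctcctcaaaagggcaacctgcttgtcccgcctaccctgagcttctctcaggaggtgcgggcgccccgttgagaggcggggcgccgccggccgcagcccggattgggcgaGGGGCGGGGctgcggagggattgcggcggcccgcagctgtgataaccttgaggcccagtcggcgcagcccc
The Pklr stretch precedes the downstream of the listed starts, that of the liver form, and holds 1 carbohydrate response element that begins 170 bases before it. Those letters occurred in 15 of 32851 windows of 300 bases around all annotated starts (0.0457%), and Pklr was the only gene of the 37 with a window to hold them. G6pc held 1 cyclic AMP element at 162 and 1 insulin response core at 174 bases before its start, and Pck1 held 1 cyclic AMP element at 93 bases before its start. The letters of these last 2 motifs were set after the G6pc and Pck1 windows had been read. The cyclic AMP letters were in 4.49% of all windows, the insulin response core in 6.28%, the E-box in 7.15% and the GC box in 11.4%. Among the 37 genes, 8 held an E-box, 10 a GC box, 5 the cyclic AMP letters and 4 the insulin response core. Counted per gene in the same way, these were held by 8.09%, 12.9%, 5.12% and 7.2% of all genes with a window. E-box and cyclic AMP matches can overlap because they share the letters ACGT. No windows were found for Gys2, Ppp1r3b and Insr. A match describes letters only and is not evidence of binding.

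Libraries held 2906411 to 10166959 counts. The deleted genes followed the labels where WT livers expressed them. In females Cyp2b9 had 683 to 3530 counts in WT against 2 to 8 in Cyp2b-null livers, and in ND-fed males Cyp2b10 had 33 to 97 counts against 1 to 9. Cyp2b9 in ND-fed males (0 to 15 against 4 to 18 counts) and Cyp2b10 in CDAHFD-fed males (0 to 7 against 0 to 6 counts) were too low to check the label, but Cyp2b9 separated the CDAHFD-fed males at 118 to 364 against 2 to 7 counts. Library 3 of the CDAHFD-fed Cyp2b-null females stood apart from its group, at a root mean square distance of 0.646 log2 units against 0.343 to 0.541 for all other libraries. Markers of hepatocytes, the main cells of the labelled tissue, were high, with albumin at 42238 CPM or above in all 32 libraries, where CPM is the count scaled to library size, with TMM factors set within each sex.

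CDAHFD changed the level of many of the 40 genes, and it did so in opposite directions within the same pathways. Genes called, at an adjusted p under 0.05 in edgeR's quasi-likelihood test over all genes, numbered 19 in WT females (7 higher and 12 lower), 22 in Cyp2b-null females (10 higher and 12 lower), 23 in WT males (9 higher and 14 lower) and 25 in Cyp2b-null males (12 higher and 13 lower). The same call was reached by 24.1%, 30.8%, 33% and 37.4% of all genes tested, respectively, so the share called among the 40 was above that of all genes in every comparison. The 40 genes were chosen with earlier results of these data known, so this difference in shares describes the list and is not a test of it. Split by direction, the shares of all genes were 13.9% higher and 10.2% lower in WT females, 16.9% higher and 13.9% lower in Cyp2b-null females, 18% higher and 15% lower in WT males, and 20.3% higher and 17.1% lower in Cyp2b-null males. The 7 that rose in all 4 comparisons were Hk2, Hk3, Pfkp, Aldoa, Pkm, Gyg and G6pdx. The 9 that fell in all 4 were G6pc, Fbp1, Slc37a4, Khk, Pklr, Slc2a2, Pygl, Ppp1r3b and Irs1. Another 10 were not called in any (Pcx, Gpi1, Pfkl, Pfkfb1, Pfkfb3, Tpi1, Pgam1, Ldha, Gys2 and Ugp2), and 0 were called in both directions. Values of CDAHFD and ND libraries did not overlap for 16, 18, 23 and 25 of the 40 in the same order, against 25.8%, 30.6%, 28.4% and 36.8% of all genes.

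These splits are relative to the average gene. With TMM scaling the median log2 change of all genes lay between -0.0228 and 0.0273, whereas scaling by library size only moved it to 0.317, 0.282, 0.371 and 0.365 in WT females, Cyp2b-null females, WT males and Cyp2b-null males. On that scale the calls became 12 higher and 6 lower, 14 higher and 5 lower, 18 higher and 6 lower, and 18 higher and 7 lower. On that scale 4 called decreases changed sign, each of them to a value near 0: Gckr in males of both genotypes, Tkt in WT males and Pgk1 in Cyp2b-null males.

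**Figure D1:**
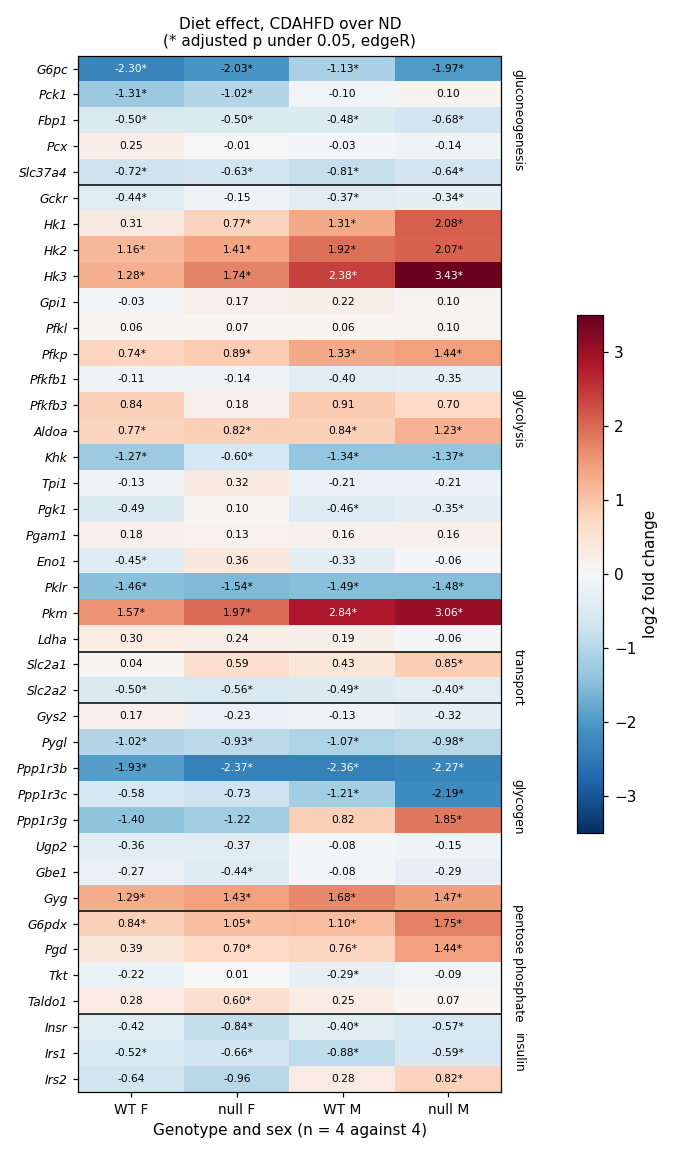
Diet effect on each of the 40 genes, as the log2 fold change of CDAHFD over ND (color and printed value), for WT and Cyp2b-null females (F) and males (M), with 4 libraries against 4 in each column and genes grouped by role. Asterisks mark an adjusted p under 0.05, and the strongest values are the 3.43 of Hk3 in Cyp2b-null males and the -2.37 of Ppp1r3b in Cyp2b-null females.

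Genes of gluconeogenesis and glucose-6-phosphate export were either called lower or not called. Of the 5, the decreases called numbered 4 in WT females, 4 in Cyp2b-null females, 3 in WT males and 3 in Cyp2b-null males, and no gene was called higher. The median log2 change of the 5 was -0.724, -0.63, -0.485 and -0.644 in that order. G6pc, Fbp1 and Slc37a4 fell in every comparison, Pck1 in females, and Pcx in none.

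G6pc (chr11:101367716-101377903) encodes the catalytic subunit of glucose-6-phosphatase, which frees glucose in the last step shared by gluconeogenesis and glycogen breakdown. In WT females, G6pc stood at 498, 730.2, 414 and 371 CPM on ND and at 51.1, 172, 74.4 and 112 CPM on CDAHFD. Cyp2b-null females had 208, 218, 403 and 436 CPM on ND and 77.1, 81.2, 77.9 and 72.6 CPM on CDAHFD. All CDAHFD-fed females lay below all ND-fed females, and the 4 CDAHFD-fed Cyp2b-null females were nearly equal. WT males had 382, 291, 357 and 344 CPM on ND and 197, 115, 158 and 159 CPM on CDAHFD. Cyp2b-null males had 229.8, 433, 423 and 210.1 CPM on ND and 96.8, 83.7, 43.01 and 109 CPM on CDAHFD. Diet groups did not overlap in males either, and the CDAHFD-fed Cyp2b-null males also lay below the CDAHFD-fed WT males. The log2 change was -2.299 ± 0.31 (SE) in WT females, -2.03 ± 0.30 in Cyp2b-null females, -1.13 ± 0.25 in WT males and -1.97 ± 0.26 in Cyp2b-null males (edgeR adjusted p = 1.21e-05, 4.14e-05, 0.00143 and 3.66e-06).

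Slc37a4 (chr9:44396946-44402966) encodes the transporter that brings glucose-6-phosphate to that phosphatase in the endoplasmic reticulum. Its ND levels in WT females were 146, 180.4, 187 and 211 CPM, against 122, 129, 73.2 and 114 CPM on CDAHFD. For Cyp2b-null females the values were 245, 198, 146 and 118 CPM on ND and 96.3, 126, 149 and 86.1 CPM on CDAHFD, and these overlapped. WT males held 126, 105, 139 and 149 CPM on ND and 82.3, 55.3, 54.3 and 104 CPM on CDAHFD. Cyp2b-null males held 128, 99.5, 134 and 123 CPM on ND and 88.1, 75.7, 65.1 and 82.03 CPM on CDAHFD, and in males of both genotypes every CDAHFD-fed liver was lower. Its log2 change was -0.72 ± 0.22 (SE) in WT females, -0.63 ± 0.22 in Cyp2b-null females, -0.81 ± 0.18 in WT males and -0.64 ± 0.18 in Cyp2b-null males (edgeR adjusted p = 0.0189, 0.0329, 0.00126 and 0.00625).

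Fbp1 (chr13:62864753-62888298), the gene of fructose-1,6-bisphosphatase, which reverses the phosphofructokinase step, was called lower in all 4 comparisons. WT females showed 1182, 1232, 1315 and 1171 CPM on ND and 989, 922, 889 and 675 CPM on CDAHFD. Cyp2b-null females showed 1423, 1166, 1326 and 984 CPM on ND and 879, 785, 993 and 811 CPM on CDAHFD, where 1 library of each diet overlapped. WT males showed 842, 696, 958 and 889 CPM on ND and 668, 566, 565 and 619.7 CPM on CDAHFD. Cyp2b-null males showed 823, 848, 846 and 874 CPM on ND and 600.2, 485, 436 and 592 CPM on CDAHFD. Males did not overlap between diets in either genotype. As a log2 change the diet effect was -0.50 ± 0.14 (SE) in WT females, -0.50 ± 0.14 in Cyp2b-null females, -0.48 ± 0.13 in WT males and -0.68 ± 0.13 in Cyp2b-null males (edgeR adjusted p = 0.0133, 0.0109, 0.00568 and 0.000232).

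Pck1, the cytosolic phosphoenolpyruvate carboxykinase and a classical target of glucagon and insulin, was called lower in females alone, with log2 changes of -1.31 ± 0.34 (SE) in WT and -1.02 ± 0.33 in Cyp2b-null females (edgeR adjusted p = 0.0064 and 0.0246). Its levels in females ranged from 3076 to 6499 CPM in ND-fed WT to 433 to 2688 CPM in CDAHFD-fed WT livers. In males the changes were -0.10 ± 0.28 and 0.10 ± 0.28 and were not called (adjusted p = 0.815 and 0.806). The difference between the sexes itself was 1.23 ± 0.48 in WT and 1.15 ± 0.48 in Cyp2b-null mice and did not pass the test (adjusted p = 0.295 and 0.175). Pcx, the pyruvate carboxylase that starts the pathway in mitochondria, had log2 changes of 0.25, -0.01, -0.033 and -0.14, 0 of which were called.

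**Figure D2:**
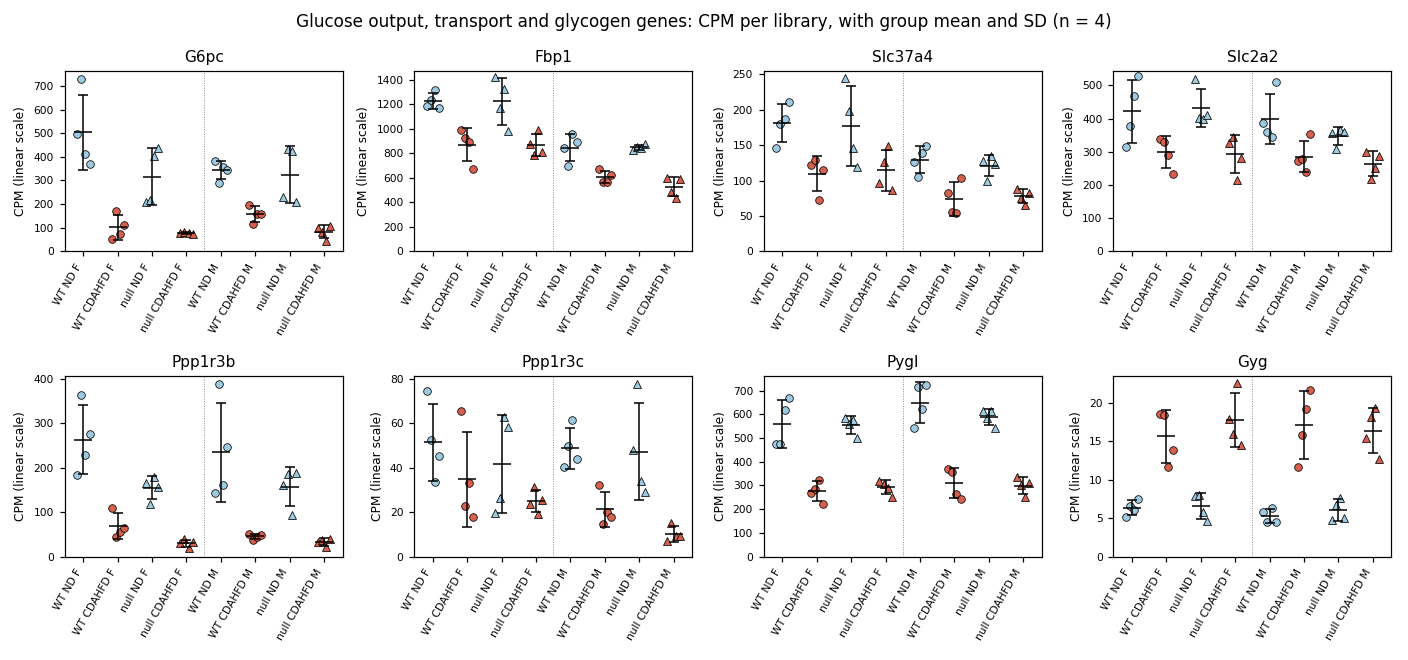
CPM per library (linear axis from 0) of 8 genes of glucose output, transport and glycogen metabolism in the 8 groups, females left and males right of the dotted line. Circles are WT and triangles Cyp2b-null, blue is ND and red CDAHFD, and bars give the mean and SD of 4 libraries; CDAHFD-fed livers are lower for G6pc and Ppp1r3b in every pair of groups and higher for Gyg.

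Among the 18 genes of glycolysis and sugar entry, calls went in both directions, and only pyruvate kinase had isoforms called in opposite ones. Called increases numbered 5, 6, 6 and 6 and called decreases 4, 2, 4 and 4 in WT females, Cyp2b-null females, WT males and Cyp2b-null males. Increases were confined in these calls to Hk1, Hk2, Hk3, Pfkp, Aldoa and Pkm, the hexokinases and the non-liver forms of phosphofructokinase, aldolase and pyruvate kinase. Decreases were confined to Gckr, Khk, Pklr, Pgk1 and Eno1. Reads of Aldoa, Pgk1, Pgam1, Eno1, Ldha and Tpi1 may be shared with near-identical copies elsewhere in the genome, and how such reads were counted is not given in the sources used here.

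Pklr (chr3:89136122-89146815) encodes the liver and red cell pyruvate kinase, whose promoter above carries the carbohydrate response element. In WT females, Pklr measured 243, 207, 357 and 508 CPM on ND and 128, 128, 132 and 89.4 CPM on CDAHFD. In Cyp2b-null females, Pklr measured 493, 345, 302 and 239.8 CPM on ND and 101, 126, 129 and 117 CPM on CDAHFD. ND-fed females varied widely, while CDAHFD-fed females were close together and all lower. In WT males, Pklr measured 217, 418, 347 and 418 CPM on ND and 144, 113, 93.04 and 150.1 CPM on CDAHFD. In Cyp2b-null males, Pklr measured 276, 277, 347 and 323 CPM on ND and 97.6, 117, 109.9 and 113 CPM on CDAHFD. Diet groups were separate in males as well. CDAHFD over ND gave a log2 change of -1.46 ± 0.24 (SE) in WT females, -1.54 ± 0.24 in Cyp2b-null females, -1.49 ± 0.18 in WT males and -1.48 ± 0.18 in Cyp2b-null males (edgeR adjusted p = 0.000112, 6.00e-05, 1.79e-06 and 1.39e-06), so the 4 estimates lay within 0.1 of one another.

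Pkm (chr9:59656576-59679372), the pyruvate kinase gene of most other tissues and of macrophages, went the opposite way. In WT females, Pkm measured 26, 19.1, 27.8 and 20.6 CPM on ND and 58.7, 70.6, 72.8 and 75.2 CPM on CDAHFD. In Cyp2b-null females, Pkm measured 18.8, 21.4, 23.4 and 18.4 CPM on ND and 72.2, 78.9, 103 and 65.8 CPM on CDAHFD. Every CDAHFD-fed female had more than any ND-fed female. In WT males, Pkm measured 18.8, 9.92, 17.8 and 16.1 CPM on ND and 79.3, 121, 147 and 100.1 CPM on CDAHFD. In Cyp2b-null males, Pkm measured 17.8, 12.3, 19.5 and 12.4 CPM on ND and 113, 112, 171 and 125 CPM on CDAHFD. Separation in males was wider, with all ND-fed males below 20 CPM and all CDAHFD-fed males at 79.3 CPM or more. The estimated diet effect, as a log2 change, was 1.57 ± 0.16 (SE) in WT females, 1.97 ± 0.16 in Cyp2b-null females, 2.84 ± 0.22 in WT males and 3.06 ± 0.22 in Cyp2b-null males (edgeR adjusted p = 5.51e-07, 2.57e-08, 5.84e-09 and 1.94e-09). In group means per kilobase of exon, Pklr still exceeded Pkm on CDAHFD, with 36.9 ± 6.22 against 13.9 ± 1.47 CPM per kb in WT females (mean ± SD, n = 4) and 33.8 ± 2.57 against 26.1 ± 5.49 CPM per kb in Cyp2b-null males. On ND the same levels were 102 ± 41.9 against 4.67 ± 0.836 CPM per kb in WT females and 94.5 ± 10.9 against 3.1 ± 0.737 CPM per kb in Cyp2b-null males. The order in CDAHFD-fed Cyp2b-null males depended on the exon lengths. There Pklr ranged from 30.2 to 36.1 and Pkm from 22.4 to 34.1 CPM per kb, whereas without division by length the means were 109 CPM for Pklr and 130 CPM for Pkm.

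Hk3 (chr13:55005985-55021475), a low-Km hexokinase abundant in myeloid cells, had the largest increase of the 40 genes in Cyp2b-null males. Females held 4.8, 12.1, 7.12 and 6.58 CPM on ND and 13.2, 24.98, 15.8 and 17.2 CPM on CDAHFD in WT. For Cyp2b-null females the levels were 5.46, 5.81, 6.24 and 5.74 CPM and 24.4, 20.2, 16.4 and 17.04 CPM on the same diets. WT males held 5.43, 3.9, 3.23 and 4.29 CPM on ND and 13.2, 27.2, 24.8 and 21.8 CPM on CDAHFD, and no diet groups overlapped up to this point. Cyp2b-null males held 2.95, 2.46, 1.86 and 2.18 CPM on ND and 24.4, 21.02, 30.3 and 30.3 CPM on CDAHFD, again without overlap. The log2 change was 1.28 ± 0.24 (SE) in WT females, 1.74 ± 0.25 in Cyp2b-null females, 2.38 ± 0.23 in WT males and 3.43 ± 0.25 in Cyp2b-null males (edgeR adjusted p = 0.000511, 2.21e-05, 1.02e-07 and 1.94e-09).

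Hk2 (chr6:82725025-82774454), the insulin-responsive hexokinase of muscle and of dividing cells, was low throughout. WT females had 1.8, 1.56, 3.39 and 2.42 CPM on ND and 3.79, 3.15, 6.15 and 7.09 CPM on CDAHFD, with an overlap of 1 library each. Cyp2b-null females had 1.82, 1.8, 1.56 and 1.52 CPM and 4.93, 5.26, 4.87 and 3.11 CPM. WT males had 1.09, 1.79, 2.42 and 2.15 CPM on ND and 7.46, 5.32, 8.06 and 7.69 CPM on CDAHFD. Cyp2b-null males had 3.39, 0.447, 0.621 and 0.872 CPM on ND, where 1 library stood above the other 3, and 9.81, 3.9, 8.22 and 4.65 CPM on CDAHFD. Its log2 change was 1.16 ± 0.33 (SE) in WT females, 1.41 ± 0.34 in Cyp2b-null females, 1.92 ± 0.43 in WT males and 2.07 ± 0.44 in Cyp2b-null males (edgeR adjusted p = 0.0116, 0.00362, 0.0015 and 0.000722).

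Hk1 (chr10:62268855-62379920), the hexokinase of brain, red cells and most stroma, rose in 3 of the 4 comparisons. WT females had 4.8, 4.29, 6.1 and 5.02 CPM on ND and 5.58, 5.82, 6.35 and 7.09 CPM on CDAHFD, which overlapped. Cyp2b-null females had 3.64, 4.81, 2.34 and 6.58 CPM on ND and 8.57, 9.37, 6.67 and 6.97 CPM on CDAHFD, all of the latter higher. WT males went from 2.72, 5.69, 4.98 and 6.44 CPM on ND to 8.58, 13.1, 14.9 and 12.4 CPM on CDAHFD. Cyp2b-null males went from 3.83, 2.46, 3.11 and 3.05 CPM on ND to 10.3, 11.9, 18.5 and 12.9 CPM on CDAHFD, again without overlap. As a log2 change the diet effect was 0.31 ± 0.25 (SE) in WT females, 0.77 ± 0.25 in Cyp2b-null females, 1.31 ± 0.25 in WT males and 2.08 ± 0.27 in Cyp2b-null males (edgeR adjusted p = 0.425, 0.0224, 0.000392 and 2.86e-06). Per kilobase of exon, Hk3 was the most abundant of the 3 hexokinases in every group mean, at 7.19 ± 1.25 CPM per kb in CDAHFD-fed Cyp2b-null males against 1.57 ± 0.418 for Hk1 and 1.11 ± 0.474 for Hk2.

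Aldoa, the muscle-type aldolase, rose with log2 changes of 0.77, 0.82, 0.84 and 1.23, and Pfkp, the platelet-type phosphofructokinase, with 0.74, 0.89, 1.33 and 1.44 in the order used above. Pfkp lost its call in WT females in 5 of 16 fits that left out 1 library. Khk, the ketohexokinase that commits fructose to the liver, fell, with log2 changes of -1.27, -0.60, -1.34 and -1.37 and a call in Cyp2b-null females that was lost in 6 of 16 fits without 1 library. Its level went from 585 ± 80.05 to 230.4 ± 38.2 CPM in WT males and from 487 ± 86.2 to 322 ± 104 CPM in Cyp2b-null females (mean ± SD, n = 4). Gckr, which holds glucokinase in the nucleus, had changes of -0.44, -0.15, -0.37 and -0.34 and was called in all but Cyp2b-null females, in WT females in only 6 of 16 fits without 1 library. Pgk1, the phosphoglycerate kinase, was called lower in males alone, at -0.46 ± 0.11 (SE) in WT and -0.35 ± 0.11 in Cyp2b-null. Eno1, the enolase, was called lower in WT females at -0.45 ± 0.16, and that call was lost in 12 of 16 fits that left out 1 library. Of the other steps, 0 of the following were called: Pfkl, the liver phosphofructokinase, had changes of 0.058, 0.075, 0.063 and 0.10, Pgam1 (phosphoglycerate mutase) of 0.18, 0.13, 0.16 and 0.16, Gpi1 (glucose-6-phosphate isomerase) of -0.029, 0.17, 0.22 and 0.10 and Tpi1 (triosephosphate isomerase) of -0.13, 0.32, -0.21 and -0.21. Ldha, which converts pyruvate to lactate, had changes of 0.30, 0.24, 0.19 and -0.055. Of the bifunctional enzymes that set fructose-2,6-bisphosphate, the liver form Pfkfb1 had -0.11, -0.14, -0.40 and -0.35 and the inducible Pfkfb3 had 0.84, 0.18, 0.91 and 0.70, with SEs of 0.341 to 0.435 for the latter, and 0 of these values were called.

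**Figure D3:**
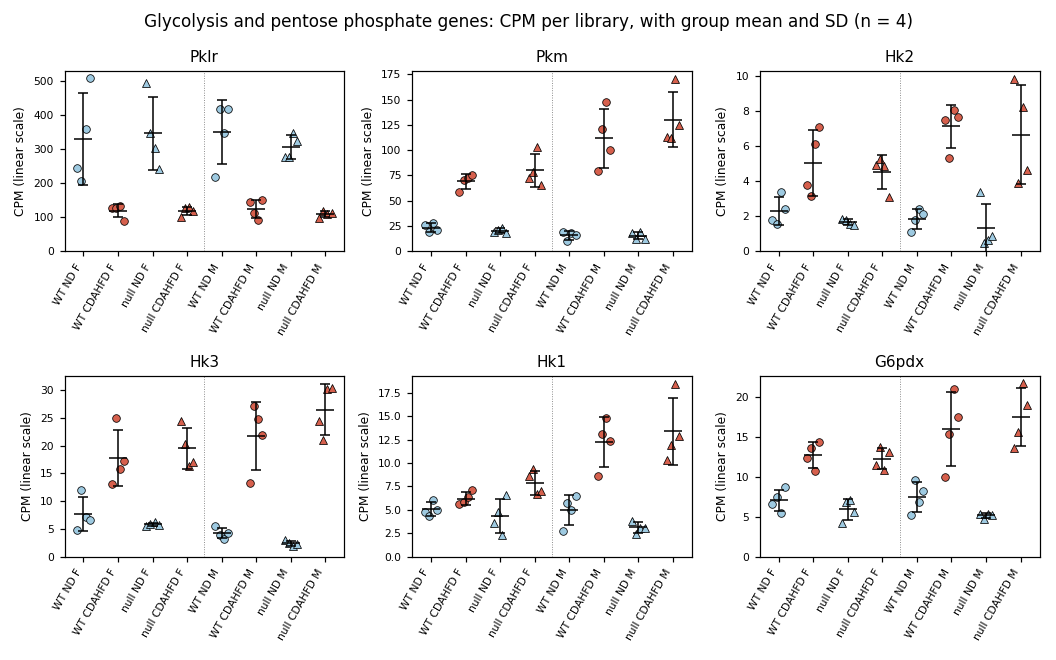
CPM per library (linear axis from 0) of the 2 pyruvate kinase genes, 3 hexokinases and G6pdx in the 8 groups, with females left and males right of the dotted line. Circles are WT and triangles Cyp2b-null, blue is ND and red CDAHFD, and bars give the mean and SD of 4 libraries; Pklr is lower and Pkm and Hk3 are higher in all CDAHFD-fed groups.

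The glucose transporters showed a decrease of the hepatocyte form. Slc2a2 (chr3:28697903-28728361) encodes GLUT2, the high-capacity carrier of hepatocytes. WT females had 315, 378, 466 and 528 CPM on ND and 339.7, 330.1, 290.4 and 234 CPM on CDAHFD, with overlap. Cyp2b-null females had 518, 402, 399 and 411 CPM on ND and 328, 345, 216 and 282 CPM on CDAHFD, without overlap. WT males had 387, 359, 343 and 509 CPM on ND and 273, 277, 239 and 352 CPM on CDAHFD, where the highest CDAHFD-fed liver exceeded the lowest ND-fed one. Cyp2b-null males had 357, 307, 365 and 359 CPM on ND and 301, 217, 251 and 287 CPM on CDAHFD. CDAHFD over ND gave a log2 change of -0.50 ± 0.17 (SE) in WT females, -0.56 ± 0.17 in Cyp2b-null females, -0.49 ± 0.14 in WT males and -0.40 ± 0.14 in Cyp2b-null males (edgeR adjusted p = 0.0415, 0.0186, 0.0128 and 0.0354), and each of these calls was lost in 2 to 5 of the 16 fits that left out 1 library. Slc2a1, or GLUT1, the carrier of most other cells, was called higher in Cyp2b-null males alone, at 0.85 ± 0.18 (SE, adjusted p = 0.000712), with changes of 0.043, 0.59 and 0.43 in the others. Slc2a2 remained the more abundant per kilobase, at 45.9 ± 6.53 against 6.34 ± 0.505 CPM per kb in CDAHFD-fed Cyp2b-null males.

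Among the glycogen genes Ppp1r3b and the phosphorylase Pygl fell and glycogenin rose in all 4 comparisons. Of the 8, 1, 1, 1 and 2 were called higher and 2, 3, 3 and 3 lower in WT females, Cyp2b-null females, WT males and Cyp2b-null males. Glycogen synthase itself (Gys2), UDP-glucose pyrophosphorylase (Ugp2) and the branching enzyme (Gbe1) had log2 changes of 0.17, -0.23, -0.13 and -0.32, of -0.36, -0.37, -0.082 and -0.15 and of -0.27, -0.44, -0.079 and -0.29, and among these only Gbe1 in Cyp2b-null females was called (adjusted p = 0.0164).

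Ppp1r3b (chr8:35375694-35388139) encodes the hepatic glycogen-targeting subunit of protein phosphatase 1, which brings the phosphatase to glycogen and activates glycogen synthase. WT females held 184, 365, 228 and 275 CPM on ND and 110.2, 45.1, 54.9 and 64.4 CPM on CDAHFD. Cyp2b-null females held 165, 119, 179.8 and 157 CPM on ND and 29.9, 38.8, 18.8 and 32.5 CPM on CDAHFD. On each diet all 4 Cyp2b-null females were below all 4 WT females, and within each genotype the diets did not overlap. WT males held 143, 388, 161 and 247 CPM on ND and 51.9, 37.5, 44.8 and 48.4 CPM on CDAHFD. Cyp2b-null males held 161, 186, 93.4 and 189 CPM on ND and 32.3, 37.7, 20.6 and 40.6 CPM on CDAHFD. Males were also separated by diet, while the genotypes overlapped. The log2 change with diet was -1.93 ± 0.26 (SE) in WT females, -2.37 ± 0.27 in Cyp2b-null females, -2.36 ± 0.28 in WT males and -2.27 ± 0.28 in Cyp2b-null males (edgeR adjusted p = 1.10e-05, 1.39e-06, 1.31e-06 and 1.73e-06), and these calls held in all 16 fits that left out 1 library and under each of the 7 other settings.

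Ppp1r3c (chr19:36731731-36736604), another glycogen-targeting subunit, fell in males. In WT females, Ppp1r3c was 74.8, 52.6, 33.6 and 45.5 CPM on ND and 65.6, 22.8, 33.2 and 17.7 CPM on CDAHFD. In Cyp2b-null females, Ppp1r3c was 19.4, 26.2, 62.8 and 58.6 CPM on ND and 23.9, 31.6, 19.3 and 25.4 CPM on CDAHFD. These females overlapped between diets in both genotypes. In WT males, Ppp1r3c was 40.4, 49.7, 61.4 and 43.8 CPM on ND and 32.3, 14.7, 20.3 and 17.7 CPM on CDAHFD. In Cyp2b-null males, Ppp1r3c was 48.2, 77.8, 33.95 and 29.2 CPM on ND and 6.8, 14.97, 9.46 and 9.5 CPM on CDAHFD. Diet groups of males did not overlap. The estimated diet effect, as a log2 change, was -0.58 ± 0.36 (SE) in WT females, -0.73 ± 0.37 in Cyp2b-null females, -1.21 ± 0.28 in WT males and -2.19 ± 0.29 in Cyp2b-null males (edgeR adjusted p = 0.268, 0.14, 0.00186 and 4.24e-06). The difference of the diet effect between the sexes was -0.60 ± 0.49 in WT and -1.44 ± 0.51 in Cyp2b-null mice and did not pass the test (adjusted p = 0.78 and 0.104).

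Ppp1r3g (chr13:35958824-35970388), a subunit known to swing with feeding, was the most variable of the 3. Its ND values in WT females were 3.001, 12.5, 18.98 and 8.48 CPM, and those on CDAHFD were 2.68, 9.46, 1.84 and 2.09 CPM. Its values in Cyp2b-null females were 23.7, 19.6, 19.5 and 8.94 CPM on ND and 1.56, 3.29, 14.8 and 9.58 CPM on CDAHFD. WT males ran from 18.5, 0.488, 13.1 and 6.87 CPM on ND to 7.84, 15.6, 13.5 and 32.3 CPM on CDAHFD, so the groups named so far overlapped between diets. Cyp2b-null males had 3.39, 2.68, 12.6 and 2.83 CPM on ND and 29.6, 13.7, 10.4 and 24.04 CPM on CDAHFD, and these overlapped by 1 ND library. The log2 change was -1.398 ± 0.61 (SE) in WT females, -1.22 ± 0.53 in Cyp2b-null females, 0.82 ± 0.57 in WT males and 1.85 ± 0.61 in Cyp2b-null males (edgeR adjusted p = 0.107, 0.0834, 0.289 and 0.0213), and the call in Cyp2b-null males was lost in 4 of 16 fits that left out 1 library.

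Pygl (chr12:70190815-70227683), the liver glycogen phosphorylase that releases glucose units from glycogen, was lower on CDAHFD throughout. WT females had 474, 473, 619.6 and 671 CPM on ND and 269.9, 286, 324 and 222 CPM on CDAHFD. Cyp2b-null females had 585, 559, 574 and 502 CPM on ND and 321, 307, 290.2 and 251 CPM on CDAHFD. Neither pair overlapped. WT males had 540.4, 715, 621 and 722 CPM on ND and 369.7, 356, 266 and 243 CPM on CDAHFD. Cyp2b-null males had 616, 583, 613 and 543 CPM on ND and 335, 302, 251 and 311 CPM on CDAHFD. Each CDAHFD-fed male was again below each ND-fed male of its genotype. Its log2 change was -1.02 ± 0.14 (SE) in WT females, -0.93 ± 0.14 in Cyp2b-null females, -1.07 ± 0.14 in WT males and -0.98 ± 0.14 in Cyp2b-null males (edgeR adjusted p = 2.37e-05, 6.33e-05, 6.32e-06 and 1.59e-05).

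Gyg (chr3:20122083-20155117), the glycogenin that primes new glycogen particles, was low on ND and rose everywhere. WT females had 5.2, 6.62, 6.1 and 7.45 CPM on ND and 18.5, 18.4, 11.7 and 13.9 CPM on CDAHFD. Cyp2b-null females had 7.89, 8.01, 5.85 and 4.56 CPM on ND and 17.9, 15.9, 22.5 and 14.6 CPM on CDAHFD. WT males had 5.79, 4.55, 6.33 and 4.51 CPM on ND and 11.6, 15.8, 19.2 and 21.7 CPM on CDAHFD. All ND-fed livers had at most 8.01 CPM and all CDAHFD-fed livers at least 11.6 CPM. Cyp2b-null males had 4.81, 6.71, 7.66 and 5.01 CPM on ND and 15.3, 18.1, 19.2 and 12.7 CPM on CDAHFD. As a log2 change the diet effect was 1.29 ± 0.23 (SE) in WT females, 1.43 ± 0.22 in Cyp2b-null females, 1.68 ± 0.22 in WT males and 1.47 ± 0.22 in Cyp2b-null males (edgeR adjusted p = 0.000237, 5.71e-05, 5.58e-06 and 1.99e-05).

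In the pentose phosphate pathway the NADPH-producing steps carried most of the called increases. G6pdx (chrX:74409483-74428880), the X-linked glucose-6-phosphate dehydrogenase that opens the pathway, was called higher in all 4 comparisons. WT females had 6.6, 7.4, 5.42 and 8.66 CPM on ND and 12.3, 13.6, 10.7 and 14.3 CPM on CDAHFD. Cyp2b-null females had 4.25, 6.81, 7.02 and 5.57 CPM on ND and 11.4, 13.6, 10.8 and 13.1 CPM on CDAHFD. WT males had 5.25, 9.59, 6.87 and 8.16 CPM on ND and 9.89, 15.3, 20.96 and 17.5 CPM on CDAHFD. These values did not overlap between diets in any of the 4 comparisons. Cyp2b-null males had 5.36, 4.7, 5.38 and 5.23 CPM on ND and 13.6, 15.6, 21.7 and 18.99 CPM on CDAHFD. CDAHFD over ND gave a log2 change of 0.84 ± 0.20 (SE) in WT females, 1.05 ± 0.20 in Cyp2b-null females, 1.104 ± 0.23 in WT males and 1.75 ± 0.23 in Cyp2b-null males (edgeR adjusted p = 0.00332, 0.000444, 0.000686 and 4.85e-06).

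Pgd (chr4:149149991-149166705), the 6-phosphogluconate dehydrogenase of the next oxidative step, was called higher in 3 of the 4. WT females had 7.4, 5.84, 13.2 and 11.3 CPM on ND and 13.2, 10.4, 9.84 and 16.1 CPM on CDAHFD, which overlapped. Cyp2b-null females had 8.8, 8.21, 7.41 and 8.61 CPM on ND and 15.6, 13.3, 12.4 and 12.8 CPM on CDAHFD. WT males had 7.24, 17.6, 10.1 and 14.4 CPM on ND and 14.7, 25.8, 23.5 and 19.2 CPM on CDAHFD, which also overlapped. Cyp2b-null males had 10.1, 9.84, 9.32 and 8.06 CPM on ND and 24.04, 27.9, 25.7 and 23.8 CPM on CDAHFD, a clear separation. The estimated diet effect, as a log2 change, was 0.39 ± 0.22 (SE) in WT females, 0.70 ± 0.22 in Cyp2b-null females, 0.76 ± 0.21 in WT males and 1.44 ± 0.22 in Cyp2b-null males (edgeR adjusted p = 0.218, 0.0206, 0.00839 and 2.00e-05). Transketolase (Tkt) had changes of -0.22, 0.0079, -0.29 and -0.093, called lower in WT males (adjusted p = 0.0367), and transaldolase (Taldo1) had 0.28, 0.60, 0.25 and 0.072, called higher in Cyp2b-null females (adjusted p = 0.00475).

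Of the insulin signalling genes, those of the receptor and of its first substrate were called lower and the other substrate had estimates of both signs. Irs1 (chr1:82233105-82291439), an adaptor phosphorylated by the receptor, was called lower in all 4 comparisons. WT females had 41.8, 33.5, 29.2 and 35.2 CPM on ND and 26.3, 23.04, 25 and 23.4 CPM on CDAHFD. Cyp2b-null females had 18.8, 34.6, 37.4 and 34.6 CPM on ND, 1 of them as low as the CDAHFD-fed livers, and 18.7, 20.6, 17.7 and 22.4 CPM on CDAHFD. WT males had 44.9, 49.3, 42.7 and 75.8 CPM on ND and 36.6, 30.3, 23.6 and 24.8 CPM on CDAHFD. Cyp2b-null males had 54.8, 42.5, 30.8 and 36.8 CPM on ND and 29.6, 34.04, 27.1 and 18.99 CPM on CDAHFD, with overlap. The log2 change was -0.52 ± 0.17 (SE) in WT females, -0.66 ± 0.18 in Cyp2b-null females, -0.88 ± 0.21 in WT males and -0.59 ± 0.21 in Cyp2b-null males (edgeR adjusted p = 0.0335, 0.00744, 0.00253 and 0.0312).

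Insr (chr8:3150922-3279649), the insulin receptor gene, was called lower in all but WT females, although no diet groups overlapped there either. WT females had 147, 188, 148 and 178 CPM on ND and 115, 144, 131 and 105 CPM on CDAHFD. Cyp2b-null females had 163, 195, 186 and 199 CPM on ND and 129, 119, 65.5 and 102 CPM on CDAHFD. WT males had 160.2, 212, 161 and 167 CPM on ND and 122, 151, 107 and 149 CPM on CDAHFD. In each of these pairs the CDAHFD-fed livers were lower. Cyp2b-null males had 197, 192, 175 and 173 CPM on ND and 134, 93.8, 118 and 153 CPM on CDAHFD. Its log2 change was -0.42 ± 0.17 (SE) in WT females, -0.84 ± 0.17 in Cyp2b-null females, -0.40 ± 0.15 in WT males and -0.57 ± 0.15 in Cyp2b-null males (edgeR adjusted p = 0.0811, 0.000794, 0.0381 and 0.00413).

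Irs2 (chr8:10984681-11008929), the substrate whose hepatic transcription rises in fasting, was scattered in females. WT females had 37.2, 25.7, 9.15 and 30.8 CPM on ND and 8.7, 17.9, 28.3 and 12.6 CPM on CDAHFD. Cyp2b-null females had 17.9, 29.2, 29.2 and 25.8 CPM on ND and 11.2, 14.8, 4.15 and 21.3 CPM on CDAHFD. Overlap was present in both genotypes of females. WT males had 21, 14.5, 28.1 and 23.4 CPM on ND and 25.2, 32.1, 22.5 and 26.7 CPM on CDAHFD. Cyp2b-null males had 19.4, 11.9, 19.5 and 12.9 CPM on ND and 30.1, 27.6, 32.2 and 23.03 CPM on CDAHFD, the only pair without overlap. As a log2 change the diet effect was -0.64 ± 0.39 (SE) in WT females, -0.96 ± 0.40 in Cyp2b-null females, 0.28 ± 0.19 in WT males and 0.82 ± 0.20 in Cyp2b-null males (edgeR adjusted p = 0.262, 0.0701, 0.282 and 0.00224).

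A further 107 genes of these pathways, listed by role, gave the setting. Of them 87 were tested in females and 90 in males, and calls numbered 8 higher and 23 lower in WT females, 10 and 20 in Cyp2b-null females, 13 and 28 in WT males, and 17 and 28 in Cyp2b-null males. In all 4 comparisons, 6 rose and 12 fell. The increases included the lactate exporter Slc16a3 (log2 changes of 1.85, 2.61, 2.56 and 3.104), Pfkfb4 (1.89, 2.61, 1.81 and 2.56) and the mitochondrial phosphoenolpyruvate carboxykinase Pck2 (1.55, 1.495, 2.07 and 2.24), the last opposite in direction to Pck1 in females. Trib3, a stress-induced pseudokinase that binds AKT, rose by 1.52, 1.66, 1.96 and 2.103, and the brain-type glycogen phosphorylase Pygb rose by 0.83, 0.92, 1.64 and 2.16 while liver Pygl fell. Pgm1, a phosphoglucomutase, rose by 0.90, 1.14, 2.003 and 1.87. Decreases included Pdk1, a kinase that switches off pyruvate dehydrogenase, at -1.61, -1.499, -1.64 and -1.71, and Mlxipl, which encodes the factor that binds carbohydrate response elements such as that of Pklr, at -0.60, -0.84, -1.28 and -1.33.

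Markers of other liver cells moved with these genes, and in whole-liver RNA a smaller share of hepatocytes and less RNA per hepatocyte cannot be told apart. Of 9 hepatocyte markers measured, 7 were called lower in each comparison, with median log2 changes of -0.77, -0.58, -0.71 and -0.67. Of the decreases called among the 40 genes, 6 of 12, 9 of 12, 8 of 14 and 7 of 13 were larger than that median, G6pc, Pklr, Khk, Ppp1r3b and Pygl among them in every comparison. Macrophage markers were called higher for 8, 8, 9 and 9 of 10, with 1 called lower in WT females, and had medians of 1.92, 1.81, 2.92 and 3.26. Among the increases, 0 of 7, 1 of 10 (Pkm), 0 of 9 and 1 of 12 (Hk3) exceeded that median. Summed macrophage markers ran from 331 to 488 CPM in ND-fed WT females, from 780 to 953 CPM in CDAHFD-fed WT females, from 140 to 258 CPM in ND-fed WT males and from 565 to 1160 CPM in CDAHFD-fed WT males, and in Cyp2b-null mice from 311 to 486, 791 to 1220, 142 to 190 and 784 to 1390 CPM in the same order. Stellate cell and fibroblast markers were called higher for 7, 8, 7 and 9 of 10, and 5 of 5 proliferation markers were higher in every comparison. Cholangiocyte markers were called higher for 2, 3, 2 and 2 of 6. Endothelial markers went both ways. Of 8, 0, 0, 1 and 4 were called higher and 3, 4, 1 and 0 lower in WT females, Cyp2b-null females, WT males and Cyp2b-null males. Muscle markers stayed at or below 1.95 CPM in sum. The part of these cell types in the changes of Pkm, Hk1, Hk2, Hk3, Pfkp and the other genes was not tested.

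**Figure D4:**
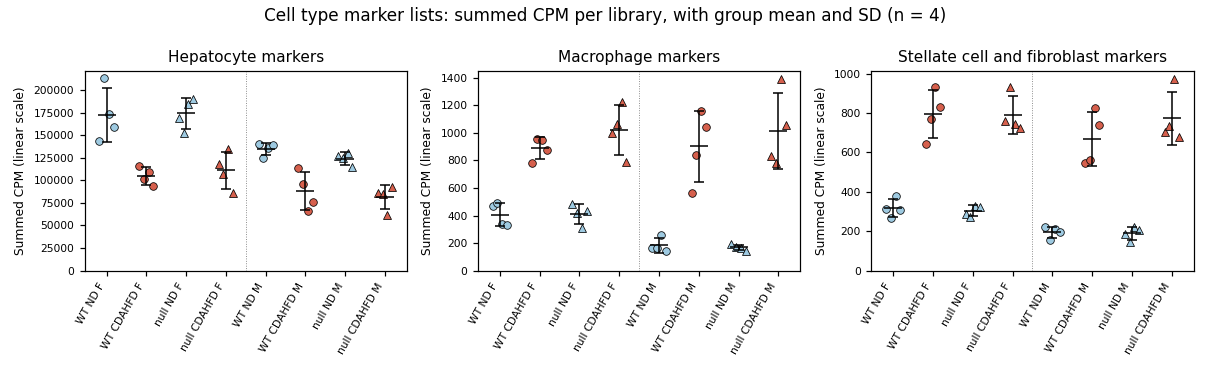
Summed CPM (linear axis from 0) of markers of hepatocytes, macrophages, and stellate cells with fibroblasts in each library of the 8 groups, with females left and males right of the dotted line. Circles are WT and triangles Cyp2b-null, blue is ND and red CDAHFD, and bars give the mean and SD of 4 libraries; CDAHFD-fed groups have lower hepatocyte sums and higher macrophage and stromal sums.

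Loss of Cyp2b was compared within each diet, and 0 of the 40 genes were called by edgeR in any of the 4 genotype comparisons. The background was low, with 0.0756% of all genes called on ND in females, 0.0371% on ND in males, 0.0227% on CDAHFD in females and 0.0297% on CDAHFD in males. Split by direction these shares were 0.0151% higher and 0.0605% lower for ND-fed females, 0.00743% higher and 0.0297% lower for ND-fed males, 0% higher and 0.0227% lower for CDAHFD-fed females, and 0.0149% higher and 0.0149% lower for CDAHFD-fed males. Genes of the 40 at an unadjusted p under 0.05 numbered 6, 5, 2 and 2 in that order, against 5.75%, 8.26%, 5.83% and 3.62% of all genes, so that the 2 of 40 on CDAHFD were near the share of all genes. DESeq2 called 0, 0, 1 (Ppp1r3b) and 0. Genotypes did not overlap for 3, 2, 4 and 2 of the 40, against 3.64%, 3.87%, 2.83% and 2.56% of all genes.

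G6pc, Ppp1r3b and Ppp1r3c are discussed for these mice by the study, which chose them on the same livers, so their direction here is not independent evidence. The study reports them as lower in CDAHFD-fed Cyp2b-null than WT males. Its genes passed edgeR across its groups and were then compared between groups at p under 0.05, with no further adjustment stated. Here edgeR with the low-count filter, at an adjusted p under 0.05 over all genes, did not call them for genotype. Without adjustment, the edgeR p in CDAHFD-fed males was 0.00144 for G6pc and 0.00203 for Ppp1r3c, but not under 0.05 for Ppp1r3b. As the rules differ, the missing calls do not contradict that report. By qPCR, the study found lower G6pc in CDAHFD-fed Cyp2b-null mice of both sexes, and Ppp1r3b trended as in its RNA-seq. The G6pc difference is reported as significant in males, and in females only when the CDAHFD-fed genotypes were compared directly. Whether qPCR used the same livers is not given in the sources used here. On CDAHFD, Ppp1r3b had a log2 difference between Cyp2b-null and WT females of -1.19 ± 0.26 (SE, unadjusted p = 0.000161, edgeR adjusted p = 0.427). With DESeq2 the adjusted p was 0.0215. Without library 3 of the CDAHFD-fed Cyp2b-null females, the difference was -1.02 and the edgeR adjusted p 0.9999. That library stood apart and was the lowest of its group at 18.8 CPM. In the same fit female G6pc also had an adjusted p of 0.9999, although its difference, -0.41, was close to that with all libraries. The smallest Ppp1r3b difference, -0.87, was that without library 1 of the CDAHFD-fed WT females (adjusted p = 0.896 in edgeR). In CDAHFD-fed males the Ppp1r3b difference was -0.49 ± 0.28 (adjusted p = 0.9999), and on ND it was -0.76 ± 0.25 in females and -0.58 ± 0.26 in males (adjusted p = 0.607 and 0.579). Its 4 estimates were all negative. For G6pc the difference on CDAHFD was -0.40 ± 0.30 in females and -0.93 ± 0.25 in males (unadjusted p = 0.19 and 0.00144, edgeR adjusted p = 0.832 and 0.9999). Without library 2 of the CDAHFD-fed WT females the female G6pc value was -0.037, and without library 1 it was -0.63. The CDAHFD-fed Cyp2b-null males, at 43.0 to 109 CPM, lay below the CDAHFD-fed WT males, at 115 to 197 CPM, without overlap. For Ppp1r3c the difference was -0.47 ± 0.37 in CDAHFD-fed females and -1.04 ± 0.29 in CDAHFD-fed males (unadjusted p = 0.218 and 0.00203, edgeR adjusted p = 0.832 and 0.9999), and the lowest WT and highest Cyp2b-null males were nearly equal. Without the low-count filter, a fit in which every gene takes the spread of the trend, edgeR called Ppp1r3b in CDAHFD-fed females (-1.197, adjusted p = 5.36e-09) and G6pc (-0.92, adjusted p = 2.55e-07) and Ppp1r3c (-1.03, adjusted p = 1.81e-06) in CDAHFD-fed males.

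Other genotype differences did not pass the correction. In ND-fed females, Gys2 differed by 0.74 ± 0.23 (SE) and Gbe1 by 0.36 ± 0.14, each without overlap (edgeR adjusted p = 0.572 and 0.786). In ND-fed males, Hk3 had a log2 difference of -0.77 ± 0.29 without overlap (edgeR adjusted p = 0.449). In CDAHFD-fed females, Eno1 differed by 0.46 ± 0.16 (edgeR adjusted p = 0.826). Genotypes were also separate for Ldha in ND-fed males (0.25), for Irs1 (-0.29) and Pfkfb3 (-0.51) in CDAHFD-fed females and for Gbe1 in CDAHFD-fed males (-0.11), which are named because their values were seen. The median genotype difference of the 40 genes was -0.0625, -0.105, 0.0929 and 0.0118 in the order given above, and that of all genes lay between -0.0105 and 0.00505. Hepatocyte, macrophage and erythroid markers had 0 calls in the same comparisons. Erythroid markers nevertheless had 3 of 4 genes at an unadjusted p under 0.05 in both sexes on CDAHFD, with median differences of 0.758 in females and -0.375 in males. Their sum was 737 CPM in library 3 of the CDAHFD-fed Cyp2b-null females against 187 to 373 CPM in the other 3 of that group, and its part in the genotype differences was not tested.

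**Figure D5:**
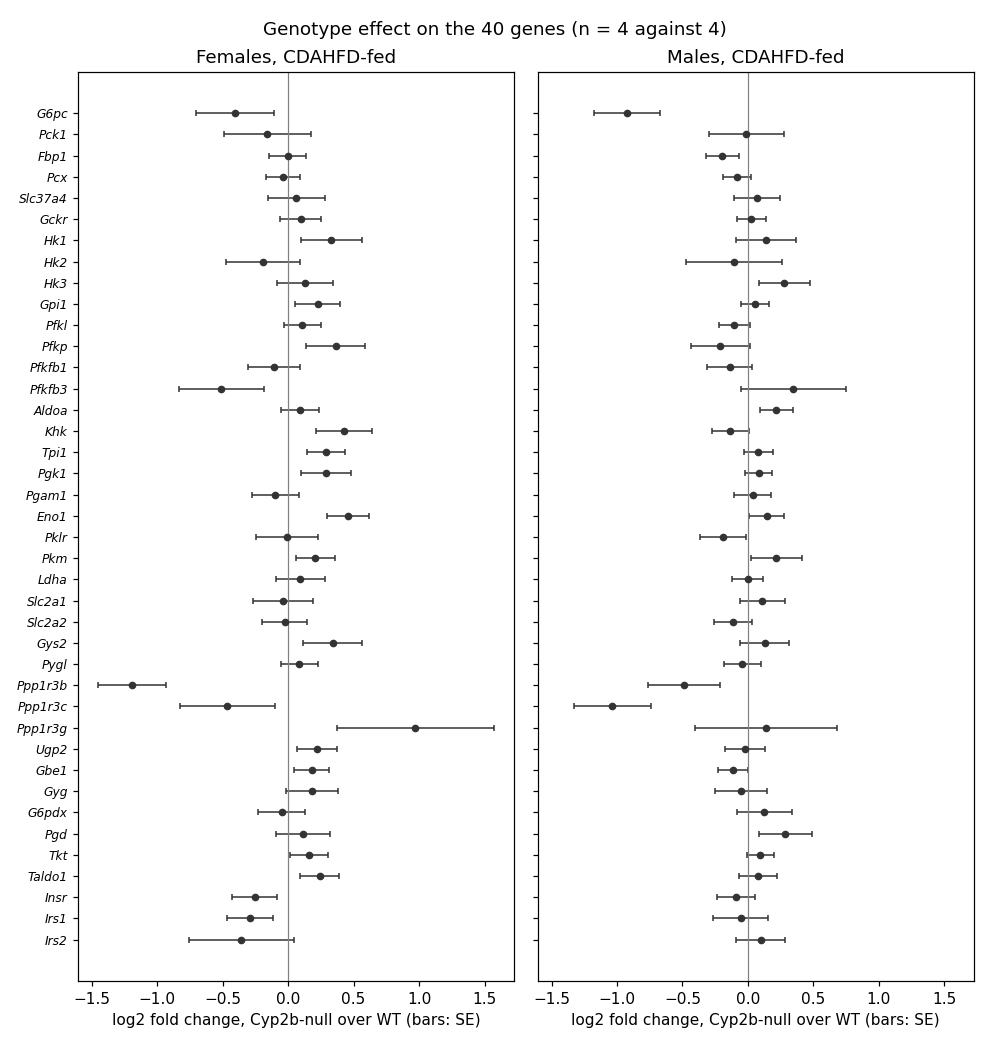
Genotype effect on each of the 40 genes in CDAHFD-fed females (left) and males (right), as the log2 fold change of Cyp2b-null over WT (points) with its SE (bars), 4 libraries against 4. Most points lie near 0, and the lowest are Ppp1r3b in females at -1.19 and Ppp1r3c and G6pc in males at -1.04 and -0.93, 0 of them with an adjusted p under 0.05.

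Whether the diet effect depended on genotype was tested directly. In neither sex did edgeR or DESeq2 call any of the 40 (0 and 0), against 0% and 0.00743% of all genes, the latter all lower, and 4 and 5 of the 40 had an unadjusted p under 0.05, against 6.28% and 6.07% of all genes. These genes are named for their p alone and none was called. In females these 4 were Eno1 (0.82 ± 0.23, SE), Khk, Pgk1 and Tpi1, all with positive estimates. In males they were Hk3 (1.05 ± 0.35), Pgd and Aldoa, with positive estimates, and G6pc (-0.84 ± 0.35) and Ppp1r3c (-0.99 ± 0.40), with negative ones. The edgeR adjusted p of these 9 values ran from 0.661 to 0.820.

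The diet effect differed between the sexes for a few genes, each with the more positive effect in males. In 1 fit over all 8 groups, 1 of the 40 genes was called in WT mice and 5 in Cyp2b-null mice, against 0.97% and 3.4% of all genes (0.67% higher and 0.3% lower in WT, and 2.09% higher and 1.31% lower in Cyp2b-null mice). Pkm was called in both, at 1.298 ± 0.28 (SE) in WT and 1.11 ± 0.28 in Cyp2b-null as the log2 change of males minus that of females (edgeR adjusted p = 0.0136 and 0.0222). In Cyp2b-null mice the others were Hk3 at 1.72 ± 0.36, Hk1 at 1.34 ± 0.36, Irs2 at 1.805 ± 0.47 and Ppp1r3g at 3.08 ± 0.89 (edgeR adjusted p = 0.00647, 0.033, 0.0253 and 0.0454). For these 4 the WT differences had the same sign, at 1.12, 1.03, 0.95 and 2.24, and were not called. In Cyp2b-null mice Pkm, Hk3 and Hk1 were called higher on CDAHFD in both sexes, whereas Irs2 and Ppp1r3g had negative estimates in females that were not called and a called increase in Cyp2b-null males. Macrophage markers also differed in the same fit, with 3 of 10 called in WT and 7 of 10 in Cyp2b-null mice, all larger in males, and median differences of 1.12 and 1.53, while 0 of 9 hepatocyte and 0 of 10 stellate cell and fibroblast markers were called. Endothelial markers had 0 of 8 calls in WT and 3 of 8 in Cyp2b-null mice. Of 4 erythroid markers tested, 1 was called lower in each genotype, with median differences of -0.15 in WT and -1.03 in Cyp2b-null mice. The part of these cells in the sex difference of the hexokinases and Pkm was not tested. Without libraries absent from the study's heat maps (library 3 of the CDAHFD-fed Cyp2b-null females and library 4 of the CDAHFD-fed Cyp2b-null males), the 5 calls in Cyp2b-null mice became 2, Pkm and Hk3. Leaving out single libraries lowered the 5 to 1 without library 2 or 4 of the ND-fed or library 3 of the CDAHFD-fed Cyp2b-null males, to 2 without library 2 of the ND-fed Cyp2b-null females and to 3 without library 3 of the CDAHFD-fed Cyp2b-null females.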

How the data were processed

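RNA-seq of whole liver was measured in 32 libraries, 4 for each of 8 groups of sex, genotype and diet. Per the study's methods, the authors checked reads with FastQC, trimmed them with Trimmomatic, aligned them to GRCm38.p6 with GSNAP and counted them per gene with featureCounts of Subread. Versions, strand setting and the treatment of reads that match several places are not given in the sources used here. The deposited values are raw counts per gene, without normalization, in 1 table per sex. Groups and replicate numbers came from the sample titles. Nothing in the labels ties a number to a shared litter or day. The titles number the 4 libraries of a group without saying that they were separate mice, which is assumed here. The p-values therefore set group differences against the spread between these samples.

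Genes were kept by filterByExpr (minimum count 10, minimum total 15), leaving 13226 in females, 13460 in males and 14020 in both sexes. Counts were scaled by TMM and fitted with edgeR 4.0.16 in R 4.3.3 (quasi-likelihood F test, 4 groups per sex, or all 8 for diet by sex). Adjusted p-values are Benjamini-Hochberg over all genes of a comparison, and calls were made below 0.05. A fold change is log2 of CDAHFD over ND or of Cyp2b-null over WT. CPM values were scaled within each sex, so the sexes were tested against each other only in the joint fit. CPM limits given over both sexes are descriptive. Libraries held 2906411 to 10166959 counts, which limits precision for genes of a few CPM, such as Hk2. The members and gene lists were chosen with earlier results of these data known. Values per library are given for members called in a genotype or interaction contrast, for the 3 genes the study's text names, and for up to 4 genes per role with the largest mean absolute change among those called in at least 3 of the 4 diet comparisons with 1 sign. Up to 8 other pathway genes are named, those with the largest mean absolute change among genes called in all 4 with 1 sign. Remaining members are given by fold changes.

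Exon lengths, found for 40 of 40 genes, are from GENCODE vM21 and join all annotated exons of a gene, whichever transcript they belong to. Gene positions and promoter windows, the latter found for 37 of 40, are from RefSeq on GRCm38.p6. The test was tried on simulated counts of 13226 genes, with 100 genes changed by 1 log2 unit and 100 by 2 in each comparison. It called 66% of genes changed by 1 log2 unit and 93% of those changed by 2 for diet in WT females, but 27% and 84% for diet by genotype in females. Adjusted p-values depend on how many genes change. The data had 3193 calls for diet in WT females and 0 for diet by genotype in females, so these shares do not carry over to the data. Alternatives were DESeq2 1.42.0, other scalings, no count filter, fits on the compared groups alone, a replicate block, and fits without single libraries or without libraries absent from the study's heat maps.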

Additional observations from a re-analysis of the deposited data

Results flagged for a closer look

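In 8 of 152 groups of 4 libraries examined for the 19 genes with values per library, 1 library lay apart from the other 3 by Dixon's ratio, and chance gives about 1 such group in 20. Ppp1r3g stood at 9.46 CPM in library 2 of the CDAHFD-fed WT females (others 1.84 to 2.68) and at 12.6 CPM in library 3 of the ND-fed Cyp2b-null males (others 2.68 to 3.39). Hk2 stood at 3.39 CPM in library 1 of the ND-fed Cyp2b-null males (others 0.447 to 0.872). Pklr was low at 89.4 CPM in library 4 of the CDAHFD-fed WT females (others 128 to 132). Slc2a2 was high at 518 CPM in library 1 of the ND-fed Cyp2b-null females (others 399 to 411) and low at 307 CPM in library 2 of the ND-fed Cyp2b-null males (others 357 to 365). Irs1 was low at 18.8 CPM in library 1 of the ND-fed Cyp2b-null females (others 34.6 to 37.4), and Insr was high at 212 CPM in library 2 of the ND-fed WT males (others 160.2 to 167).

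Diet effects that differed between the sexes, as the log2 change of males minus females in edgeR, were 1.3 for Pkm in WT mice (adjusted p = 0.0136) and, in Cyp2b-null mice, 1.11 for Pkm, 1.72 for Hk3, 1.34 for Hk1, 1.8 for Irs2 and 3.08 for Ppp1r3g. For Ppp1r3g, library 3 of the ND-fed Cyp2b-null males, named above, is part of that comparison.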

How the results depend on the processing

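The diet counts stayed within 1.5 times of 19, 22, 23 and 25 under all 7 other settings, and without single libraries they ranged from 12 to 22 in WT females (12 without library 4 of the CDAHFD-fed WT females), from 17 to 24 in Cyp2b-null females, from 20 to 24 in WT males and from 23 to 26 in Cyp2b-null males. Genotype and diet by genotype counts stayed at 0 without any single library. Diet by sex counts ranged from 1 to 2 in WT (2 without library 1 of the CDAHFD-fed WT males) and from 1 to 5 in Cyp2b-null mice, where the count was 2 without the libraries absent from the heat maps. DESeq2 gave 1 gene for genotype on CDAHFD in females (Ppp1r3b). Without the low-count filter the counts were 3 for genotype on ND in females, 2 on ND in males, 1 on CDAHFD in females (Ppp1r3b), 2 on CDAHFD in males (G6pc and Ppp1r3c, which like Ppp1r3b the study names), 2 for diet by genotype in males, and 6 and 8 for diet by sex in WT and Cyp2b-null mice. That fit has an infinite prior df, against 8.83 and 8.71 with the filter in females and males, so each gene takes the spread of the trend. With library size only, Eno1, Gckr and Tkt in WT males turned to log2 changes of 0.066, 0.013 and 0.11, and Gckr, Gbe1 and Pgk1 in Cyp2b-null males to 0.032, 0.084 and 0.023. Ppp1r3c for genotype on CDAHFD in females, not called in any of these fits, ranged from -0.69 to 0.035 without single libraries and was positive without library 1 of the CDAHFD-fed WT females. That scaling also lost 23 calls of genes with a diet or sex effect in the fit used here, and moved 27 of 160 group means in females and 67 of 160 in males by more than 1 SD. Leaving out single libraries lost 114 of 1616 calls, most often Eno1 (12 of 16 fits), Gckr (10), Pfkp (5), Irs1 (5) and Slc2a2 (4) in WT females, Khk (6) and Slc37a4 (4) in Cyp2b-null females and Slc2a2 (5) in Cyp2b-null males.

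Replicate numbers did not pair the samples: same-numbered libraries had a median correlation of deviations of -0.00794 in females and 0.0248 in males. With a replicate block the diet counts were 18, 22, 23 and 25, those for genotype and diet by genotype 0, and those for diet by sex 1 and 4. Genes of a few CPM, such as Hk2 and Ppp1r3g, are limited by depth.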
